A study of Homo sapiens with 6 samples.

Results

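Glycolysis, pyruvate and tricarboxylic acid (TCA) cycle genes were examined in ribosome profiling (Ribo-Seq) libraries of N6AMT1-depleted K562 cells. A list of 49 genes was taken by symbol, and 48 of them were among the 19330 genes of the footprint table; GPI was not analysed here. Of these, 20 belonged to glycolysis with glucose uptake and lactate handling, and 28 to pyruvate entry into mitochondria and the TCA cycle. K562 is an erythroleukemia cell line. All cells had been infected with the lentiviral pLentiCRISPRv2 vector, which expresses Cas9 and a guide, selected with puromycin for 48 h, and collected 10 days after infection from DMEM with 25 mM glucose and 1 mM sodium pyruvate. The sgN6AMT1 group (3 libraries) carried guides against N6AMT1, and the sgCtrl group (3 libraries) carried guides against the olfactory receptor genes OR11A1 and OR2M49 as the labels spell them. The second is written OR2M4 in the methods. The guide carried by each library was not given in the sources used here. The libraries of a group are described in the paper as independent lentiviral infections.

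Glycolysis splits glucose into pyruvate in the cytosol with a small yield of ATP and NADH. Pyruvate is either reduced to lactate, which returns NAD+ to glycolysis, or carried into mitochondria, where the pyruvate dehydrogenase complex converts it to acetyl-CoA that feeds the TCA cycle, the source of electrons for the respiratory chain. N6AMT1 is the methyltransferase that modifies a glutamine of eRF1, the release factor that reads stop codons, and the question here was which enzymes of central carbon metabolism carried more or fewer ribosomes when it was depleted. Ribosome occupancy is the number of footprints counted for a gene, given as CPM, a count relative to the scaled total of its library. It does not separate the amount of an mRNA from the number of ribosomes on each copy, and in a bulk sample a change in the mixture of cells and a change within cells cannot be told apart.

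The libraries held between 1821356 and 2969736 footprints. N6AMT1 itself had 25, 24 and 34 footprints in sgCtrl and 10, 9 and 8 in sgN6AMT1 (log2 fold change -1.51 ± 0.31 SE, adjusted p = 6.69e-05). The globins HBG1 and HBG2 averaged 9518 and 9885 CPM, CD14, MS4A1 and KRT5 had no footprint, and CD3E, MPO and CDH1 were below 1 CPM, although CD3D (32.5 CPM) and the epithelial gene EPCAM (180 CPM) were detected. The myeloid integrin gene ITGAM had 2, 1 and 0 footprints in sgCtrl and 17, 9 and 15 in sgN6AMT1, too few to be tested. Several genes of the erythroid program differed between the groups, with HBE1, HBA1, HBA2 and TAL1 higher and HBZ, GATA1, KLF1, LMO2 and TFRC lower in sgN6AMT1; their part in the results below was not tested.

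Stop codons are shown first for the 12 genes given library by library below, because the enzyme depleted here acts on the factor that reads them. Each line gives the last 9 bases of the coding sequence (CDS), the stop codon in capitals and the 6 bases after it, from the listed transcript in the GENCODE 44 annotation of GRCh38.
SLC2A3: accaatgtcTAAgtcgtg
HK2: ggacagcgaTAGaacccc
PFKL: aagggcttcTGAggccag
GAPDH: tccaaggagTAAgacccc
PGK1: agcaatattTAGtacttt
ENO1: ttggccaagTAAgctgtg
PKM: cctgtgccgTGAtggacc
PDHB: ttaaatattTAGtttgga
DLAT: atgttgttgTAActaact
IDH3B: tcgaacctcTGAcatggg
OGDH: aacttctcgTAGatgctg
SDHD: tggaagctcTGAcctttt
All 3 stop codons occurred among the genes that rose and among those that fell. Of the 39 tested genes of the list whose stop codon could be read, 12 ended in TAA (30.8%), 8 in TAG (20.5%) and 19 in TGA (48.7%), against 29.7%, 21.2% and 49.1% of 8487 tested genes in all. With TAA 1 rose and 4 fell, with TAG 1 rose and 3 fell, and with TGA 2 rose and 6 fell. Over all genes tested, 13.2% rose and 16.4% fell with TAA, 14.0% and 13.4% with TAG, and 12.2% and 12.5% with TGA.

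Ribosome occupancy of the list was lower more often than higher in sgN6AMT1. Of the 46 genes that passed the filter on low counts, 4 rose (PKM, IDH3B, PGK1 and ENO1) and 15 fell (GAPDH, SLC2A3, PFKL, HK2, PDHB, OGDH, DLAT, SDHD, PDHA1, LDHA, DLD, SDHA, LDHB, CS and FH) at an adjusted p under 0.05 in edgeR's quasi-likelihood test. The share that rose was 8.7%, beside 12.9% of all 9202 genes tested, and the share that fell was 32.6%, beside 13.9% of all genes tested. In either direction 41.3% of the list was called, beside 26.9% of all genes. Genes with more footprints can pass the test at smaller changes. The SE was 0.04 for ENO1 (mean 6131 CPM) and 0.20 for PDK1 (mean 18.3 CPM). The list was not matched to all genes by count level, and the part of count level in these shares was not tested. The 3 values of a group lay entirely above or below those of the other in 26 of the 46 genes (7 higher, 19 lower), against 37.5% of all genes. The median log2 fold change was -0.10 over the list and 0.01 over all genes tested. SLC16A3 and PDK3 stayed under the filter, with 1.08 ± 0.94 and 0.45 ± 0.09 CPM in sgCtrl and 1.34 ± 0.81 and 0.14 ± 0.25 CPM in sgN6AMT1 (SD, n = 3).

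The balance of directions moved with the scaling between libraries. When total counts were used in place of TMM (trimmed mean of M-values) factors, 7 genes of the list rose and 12 fell, so that 63.2% of the calls were downward in place of 78.9%. Over all genes, the downward share of calls went from 51.8% to 38.5%. The balance moved the other way with CDS length and GC trends removed, when 2 genes of the list rose and 20 fell (90.9% downward, beside 56.7% over all genes). With DESeq2, 3 rose and 14 fell (82.4% downward, beside 55.8% over all genes). Of the 19 called genes, 14 stayed past the threshold in the same direction under every alternative that could be fitted for them. Among these, LDHA and PDHA1 had no fit with CDS length and GC trends removed, because their transcripts were not matched to the annotation. The other 5 (PGK1, ENO1, CS, SDHA and FH) are named with their limits where they are described.

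**Figure D1:**
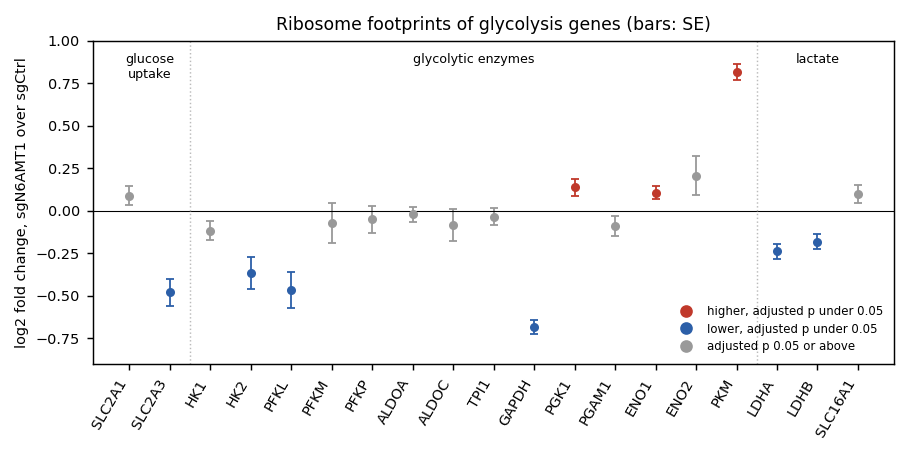
Log2 fold change of ribosome occupancy, sgN6AMT1 over sgCtrl, for the 19 tested glycolysis genes in pathway order, with bars for SE. PKM at 0.82 and GAPDH at -0.68 lie at the ends, and 10 genes are grey because they did not pass the test.

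Glucose uptake was read from the 2 glucose transporters of the list, of which 1 fell. SLC2A3 (GLUT3, chr12:7919230-7936187, minus strand, 10 exons), a high-affinity glucose transporter, had 179, 171 and 184 CPM in sgCtrl and 124, 119 and 142 CPM in sgN6AMT1. Every sgN6AMT1 library was below every sgCtrl library, and the fall was 0.48 ± 0.08 SE on the log2 scale (-0.48, adjusted p = 5.91e-07). Its paralog SLC2A14 shares sequence with it: 49.7% of the 26-base windows of the SLC2A3 CDS also occurred in another listed transcript, so part of its footprints could have been placed on either gene, and SLC2A14 had a log2 fold change of -0.62 (adjusted p = 4.94e-05). SLC2A1 (GLUT1), the common basal transporter, had 378 ± 11.1 CPM in sgCtrl and 402 ± 5.04 in sgN6AMT1 (SD, n = 3), a difference that did not pass the test (log2 fold change 0.09, adjusted p = 0.253).

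Hexokinase and phosphofructokinase commit glucose to glycolysis, and in each family 1 isoform fell. HK2 (chr2:74834127-74893359, plus strand, 18 exons), the inducible hexokinase bound to mitochondria, had 110, 110 and 103 CPM in sgCtrl and 75.4, 86.8 and 89.0 CPM in sgN6AMT1 (log2 fold change -0.37 ± 0.10 SE, adjusted p = 0.00175). The groups did not overlap. HK1, the hexokinase found in most tissues, went from 424.2 ± 19.9 to 391.6 ± 17.2 CPM, which did not pass the test (log2 fold change -0.12, adjusted p = 0.127). PFKL (chr21:44300053-44327373, plus strand, 22 exons), the liver-type phosphofructokinase subunit, had 99.0, 87.6 and 101 CPM in sgCtrl and 66.6, 66.5 and 74.4 CPM in sgN6AMT1 (log2 fold change -0.46 ± 0.10 SE, adjusted p = 0.000228). It lies on chromosome 21, as N6AMT1 does, and the 83 tested genes of that chromosome had a median log2 fold change of -0.26, with 36 lower and 2 higher; the part of this shift in the PFKL result was not tested. The other phosphofructokinase subunits did not pass the test, with log2 fold changes of -0.07 ± 0.12 SE for the muscle-type PFKM and -0.05 ± 0.08 SE for the platelet-type PFKP.

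Aldolase and triose phosphate isomerase, the steps that split the hexose and interconvert the trioses, showed no difference past the threshold. ALDOA, the main aldolase, had 2503 ± 65.2 CPM in sgCtrl and 2469 ± 117 in sgN6AMT1, ALDOC had 103 ± 7.77 and 98.2 ± 7.45, and TPI1 had 784 ± 19.5 and 765 ± 20.4 (SD, n = 3). Their groups overlapped in all 3 genes.

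GAPDH (chr12:6534754-6538339, plus strand, 8 exons), which oxidises glyceraldehyde 3-phosphate and makes the NADH of glycolysis, carried the largest loss of the list. It had 5059, 4954 and 5088 CPM in sgCtrl and 2966, 3131 and 3321 CPM in sgN6AMT1 (log2 fold change -0.68 ± 0.04 SE, adjusted p = 1.92e-26). All sgN6AMT1 libraries lay far below all sgCtrl libraries. Measured in CPM, its difference of -1894 was the second largest decrease among 9202 genes. Near it on chromosome 12, TPI1 (log2 fold change -0.03) and ENO2 (0.21) did not pass the test. SLC2A3, further along at chr12:7919230-7936187, fell (-0.48). The median over 474 tested genes of the chromosome was 0.03, with 62 higher and 59 lower, and the part of location in the GAPDH result was not tested. No 26-base window of its CDS was shared with another listed transcript.

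Below GAPDH in the pathway, PGK1, ENO1 and PKM rose. PGK1 (chrX:78104248-78129295, plus strand, 11 exons), phosphoglycerate kinase, had 857, 919 and 934 CPM in sgCtrl and 995, 1017 and 971 CPM in sgN6AMT1, a small rise of 0.14 ± 0.05 SE on the log2 scale (adjusted p = 0.0234). ENO1 (chr1:8861000-8878686, minus strand, 12 exons), the main enolase, had 5800, 5962 and 5948 CPM against 6292, 6363 and 6421 CPM (log2 fold change 0.11 ± 0.04 SE, adjusted p = 0.0294). The libraries did not overlap in either gene, but both calls were close to the threshold. PGK1 was lost with DESeq2, after thinning, with CDS length and GC trends removed, and without sgCtrl replicate 1 or sgN6AMT1 replicate 2 (adjusted p up to 0.182). ENO1 was lost with no filter, with the trends removed, and without sgCtrl replicate 1 or 3 or sgN6AMT1 replicate 2 or 3 (adjusted p up to 0.519, log2 fold change down to 0.03). Of the ENO1 windows 24.2% also occurred in other listed transcripts, mainly EDARADD, which had 0 to 4 footprints in a library. Whole transcripts were searched, and the matching part of EDARADD may lie outside its CDS. The EDARADD count therefore does not show how many ENO1 footprints were placed there. PGAM1, the phosphoglycerate mutase between PGK1 and ENO1, had 345 ± 0.65 and 325 ± 11.2 CPM and did not pass the test (log2 fold change -0.09). Of its windows 65.0% were shared, mainly with PGAM4. The neuronal enolase ENO2 had 58.0 ± 7.91 and 67.6 ± 7.0 CPM and did not pass the test either.

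PKM (chr15:72199029-72231386, minus strand, 11 exons), the muscle and tumour-type pyruvate kinase that makes pyruvate and ATP in the last step, showed the largest rise of the list. It had 932, 933 and 946 CPM in sgCtrl and 1668, 1682 and 1597 CPM in sgN6AMT1, which was 1.76-fold (log2 fold change 0.82 ± 0.05 SE, adjusted p = 1.42e-28). The sgCtrl libraries lay close together and below every sgN6AMT1 library. In CPM its gain of 712 was the fourth largest among 9202 genes. The 266 tested genes of chromosome 15 had a median log2 fold change of 0.12, with 48 higher and 16 lower; the part of this shift in the PKM result was not tested. Neither direction nor call changed under any alternative tried (log2 fold change 0.75 or more).

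PKM mRNA contains 1 of 2 mutually exclusive exons, which give the M1 and M2 forms of the enzyme. The exon in the listed transcript differs from the one in the transcript that MANE Select, a joint RefSeq and Ensembl choice of 1 transcript per gene, prefers. Both exons are shown because the PKM count may depend on which was in the mapping reference; capitals mark the 62 of 167 bases at which they differ, read on the minus strand of GRCh38 at chr15:72203022-72203188 (listed) and chr15:72202454-72202620 (MANE Select).
PKM exon, listed transcript: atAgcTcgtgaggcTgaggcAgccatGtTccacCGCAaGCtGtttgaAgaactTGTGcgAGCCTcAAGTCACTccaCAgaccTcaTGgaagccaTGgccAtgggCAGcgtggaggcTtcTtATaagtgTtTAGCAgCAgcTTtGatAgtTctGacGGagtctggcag
PKM exon, MANE Select transcript: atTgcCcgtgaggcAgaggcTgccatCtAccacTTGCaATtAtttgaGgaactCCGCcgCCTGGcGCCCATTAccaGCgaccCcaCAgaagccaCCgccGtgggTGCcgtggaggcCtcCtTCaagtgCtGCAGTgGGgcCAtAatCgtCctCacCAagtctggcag
The exon makes up 10.5% of the listed CDS. The methods describe counts of footprints placed on 1 canonical transcript per gene, which would leave out the other exon, and also counts by overlap with a gene annotation, which would take in both. The table names 1 transcript per gene, which of these counts it holds is not settled, and it gives no count by exon. The 2 forms of PKM therefore cannot be told apart here.

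**Figure D2:**
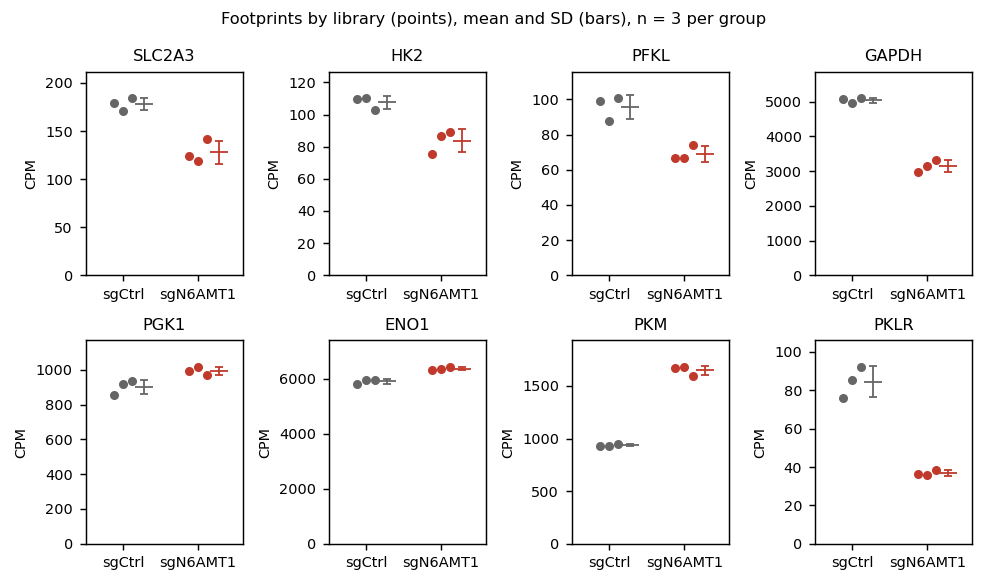
CPM in each of the 6 libraries (points), with group mean and SD (n = 3), for the 7 called glycolysis genes given library by library and PKLR; each vertical axis starts at 0. The groups do not overlap in any panel, with GAPDH and PKLR near 3139 and 36.9 CPM in sgN6AMT1 and PKM rising from 937 to 1649 CPM.

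Both subunits of lactate dehydrogenase, which interconverts pyruvate and lactate, fell, beside 13.9% of all genes tested. LDHA, the subunit that dominates in glycolytic cells, had 1924 ± 61.5 CPM in sgCtrl and 1631 ± 25.8 in sgN6AMT1 (SD, n = 3; log2 fold change -0.24 ± 0.04 SE, adjusted p = 7.06e-06). LDHB, the heart-type subunit, had 1779 ± 59.3 and 1570 ± 33.2 CPM (log2 fold change -0.18 ± 0.04 SE, adjusted p = 0.000838). Both were lower in each sgN6AMT1 library than in any sgCtrl library. SLC16A1 (MCT1), a proton-coupled lactate and pyruvate transporter, had 505 ± 7.75 and 542 ± 4.57 CPM and did not pass the test (log2 fold change 0.10, adjusted p = 0.156).

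Of the 5 tested subunits of the pyruvate dehydrogenase complex 4 fell, beside 13.9% of all genes tested, which were not matched by count level. PDHB (chr3:58427630-58433832, minus strand, 10 exons), the beta subunit of the E1 component that decarboxylates pyruvate, had 131, 117 and 129 CPM in sgCtrl and 101, 102 and 93.9 CPM in sgN6AMT1 (log2 fold change -0.34 ± 0.09 SE, adjusted p = 0.00194). DLAT (chr11:112025408-112064404, plus strand, 14 exons), the E2 acetyltransferase, had 206, 230 and 196 CPM against 183, 172 and 155 CPM (log2 fold change -0.31 ± 0.07 SE, adjusted p = 0.000427). The groups did not overlap in either gene. PDHA1, the catalytic alpha subunit, went from 294 ± 11.7 to 248 ± 15.4 CPM (log2 fold change -0.24 ± 0.06 SE, adjusted p = 0.00165). DLD, the E3 dihydrolipoamide dehydrogenase shared with the oxoglutarate dehydrogenase complex, went from 509 ± 18.3 to 436 ± 4.80 CPM (log2 fold change -0.23 ± 0.05 SE, adjusted p = 0.000714). PDHX, the E3-binding subunit, did not pass the test, at 55.1 ± 7.25 and 55.6 ± 3.67 CPM. None of the 4 calls was lost under any alternative tried, but PDHA1 had no fit with the CDS length and GC trends removed.

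The remaining genes of pyruvate entry did not pass the test. The mitochondrial pyruvate carrier subunits MPC1 and MPC2 had log2 fold changes of 0.00 ± 0.11 SE and -0.17 ± 0.09 SE. PDK1, a kinase that inhibits pyruvate dehydrogenase, averaged 19.3 ± 4.18 CPM in sgCtrl and 17.4 ± 3.87 in sgN6AMT1. Pyruvate carboxylase, PC, which makes oxaloacetate from pyruvate, had 47.5 ± 1.76 and 47.8 ± 2.1 CPM.

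**Figure D3:**
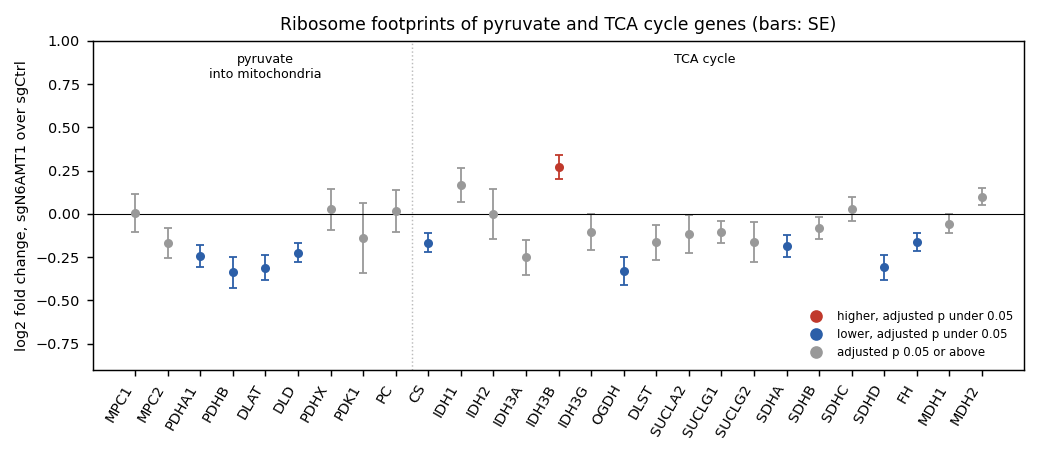
Log2 fold change of ribosome occupancy, sgN6AMT1 over sgCtrl, for the 27 tested genes of pyruvate entry and the TCA cycle, with bars for SE. PDHA1, PDHB, DLAT and DLD lie together between -0.34 and -0.23, and IDH3B at 0.27 is the one gene that rose.

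Of the 18 TCA cycle genes 5 fell, 1 rose and 12 did not pass the test. That is 27.8% lower and 5.56% higher, beside 13.9% and 12.9% of all genes tested. OGDH (chr7:44606628-44708138, plus strand, 24 exons), the E1 subunit of the oxoglutarate dehydrogenase complex, had 161, 152 and 158 CPM in sgCtrl and 119, 119 and 137 CPM in sgN6AMT1 (log2 fold change -0.33 ± 0.08 SE, adjusted p = 0.000756). All sgN6AMT1 libraries were below all sgCtrl libraries. DLST, the E2 subunit of that complex, went from 94.7 ± 5.68 to 84.1 ± 8.45 CPM and did not pass the test (log2 fold change -0.17, adjusted p = 0.222).

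IDH3B (chr20:2658395-2664189, minus strand, 13 exons), a regulatory subunit of the NAD-dependent isocitrate dehydrogenase, was the TCA cycle gene that rose. It had 197, 198 and 180 CPM in sgCtrl and 224, 239 and 233 CPM in sgN6AMT1 (log2 fold change 0.27 ± 0.07 SE, adjusted p = 0.00112), with no overlap. Its listed CDS holds 11 bases that the MANE Select CDS lacks and lacks 5 of that CDS, so the stop codon shown above is that of the listed transcript. The catalytic subunit IDH3A had 94.1 ± 6.03 and 78.5 ± 5.59 CPM, and its log2 fold change of -0.25 (SE 0.10) missed the threshold (adjusted p = 0.0518) but passed it with limma-voom and with the CDS length and GC trends removed. IDH3G, the other regulatory subunit, had 84.03 ± 3.83 and 78.1 ± 4.88 CPM and did not pass the test. The 3 subunits of 1 enzyme thus had log2 fold changes of -0.25, 0.27 and -0.11; the differences between them were not tested. The NADP-dependent enzymes IDH1 and IDH2 had log2 fold changes of 0.17 ± 0.10 SE and 0.00 ± 0.15 SE.

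Succinate dehydrogenase, which is also complex II of the respiratory chain, fell in 2 of 4 subunits, beside 13.9% of all genes tested. SDHD (chr11:112086873-112095794, plus strand, 4 exons), a membrane anchor, had 199, 199 and 204 CPM in sgCtrl and 160, 161 and 167 CPM in sgN6AMT1 (log2 fold change -0.31 ± 0.07 SE, adjusted p = 0.000407). Of its windows 63.9% also occurred in AP002884.2, so its footprints may be split with that gene, whose log2 fold change was -0.20 (adjusted p = 0.181). SDHA, the flavoprotein that oxidises succinate, went from 292 ± 6.10 to 257 ± 0.14 CPM (log2 fold change -0.19 ± 0.06 SE, adjusted p = 0.0175). The iron-sulfur subunit SDHB and the other anchor SDHC did not pass the test, with log2 fold changes of -0.08 ± 0.06 SE and 0.03 ± 0.07 SE.

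Citrate synthase, CS, which condenses acetyl-CoA with oxaloacetate, had 463 ± 5.60 CPM in sgCtrl and 413 ± 5.37 in sgN6AMT1 (log2 fold change -0.17 ± 0.06 SE, adjusted p = 0.0166). Fumarase, FH, went from 606 ± 20.7 to 542 ± 12.8 CPM (log2 fold change -0.16 ± 0.05 SE, adjusted p = 0.0139). The groups did not overlap in CS, SDHA or FH, but these 3 calls were lost with total-count scaling and without sgCtrl replicate 2 or sgN6AMT1 replicate 2, and SDHA also with DESeq2 (adjusted p up to 0.127 for CS, 0.109 for SDHA and 0.122 for FH). The malate dehydrogenases MDH1 and MDH2 and the succinyl-CoA ligase subunits SUCLA2, SUCLG1 and SUCLG2 did not pass the test, with log2 fold changes between -0.16 (SUCLG2) and 0.10 (MDH2).

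**Figure D4:**
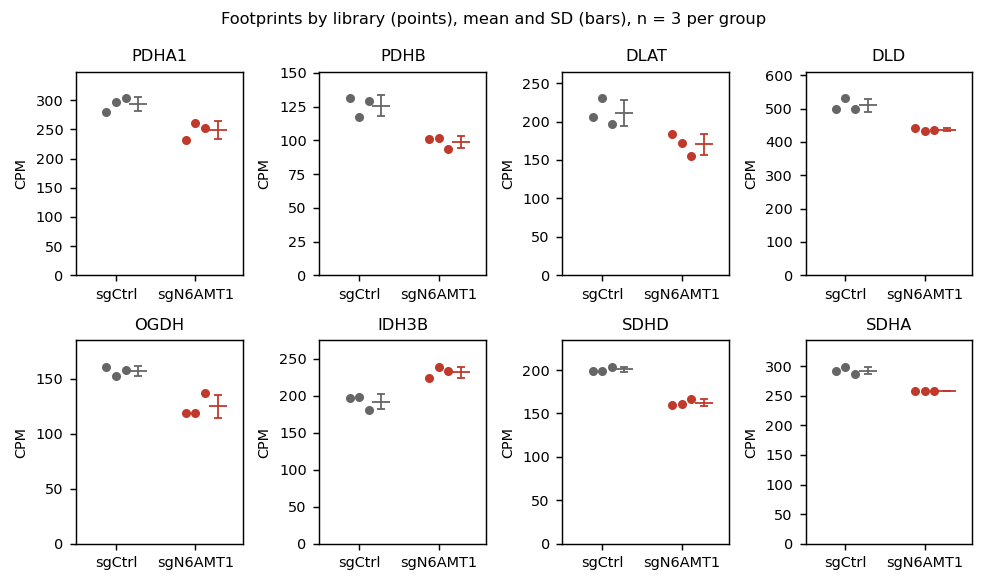
CPM in each of the 6 libraries (points), with group mean and SD (n = 3), for 4 subunits of the pyruvate dehydrogenase complex, OGDH, IDH3B, SDHD and SDHA; each vertical axis starts at 0. IDH3B moves from 192 to 232 CPM while the other 7 genes move down, and no panel shows overlap between the groups.

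Both arms of the pathway held called genes in both directions. In glycolysis 3 of 19 tested genes rose and 6 fell, with log2 fold changes from -0.68 to 0.82 and a median of -0.07. The count that rose went to 1 without sgCtrl replicate 1 or without sgN6AMT1 replicate 2, when PGK1 and ENO1 were lost. In pyruvate entry and the TCA cycle 1 of 27 rose and 9 fell, from -0.34 to 0.27 with a median of -0.14, and the count that fell went to 6 without sgCtrl replicate 2 or without sgN6AMT1 replicate 2. The shares that fell, 31.6% and 33.3%, were close to each other and above the 13.9% of all genes, which were not matched to the arms by count level. The difference between the arms was not tested. The 2 largest changes of the list, in PKM and GAPDH, were both in glycolysis.

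The summed occupancy of each arm was lower in sgN6AMT1. Glycolysis summed to 22038, 22185 and 22300 CPM in sgCtrl and to 20597, 20862 and 21201 CPM in sgN6AMT1 (log2 difference -0.09). Pyruvate entry and the TCA cycle summed to 6091, 6174 and 6204 CPM and to 5800, 5743 and 5734 CPM (log2 difference -0.10). The ratio of the 2 sums was 3.602 ± 0.014 in sgCtrl and 3.627 ± 0.073 in sgN6AMT1, and the groups overlapped. With total-count scaling the sums still did not overlap, but the log2 differences shrank to -0.03 and -0.04. By role, pyruvate entry had the lowest log2 difference of its sum, -0.21 (1464 ± 31.4 to 1263 ± 13.5 CPM), followed by lactate handling at -0.17.

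The lower glycolysis sum rested on GAPDH. Without it, a choice made after its values were seen, the other 19 genes summed to 17141 ± 141 CPM in sgCtrl and 17747 ± 125 in sgN6AMT1, which is higher. Without GAPDH and PKM the other 18 summed to 16204 ± 137 and 16098 ± 165 CPM, and the groups overlapped. GAPDH made up 22.7% ± 0.33 of the glycolysis footprints in sgCtrl and 15.0% ± 0.63 in sgN6AMT1, PKM 4.23% ± 0.02 and 7.90% ± 0.32, and ENO1 26.6% ± 0.28 and 30.4% ± 0.14 (SD, n = 3).

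**Figure D5:**
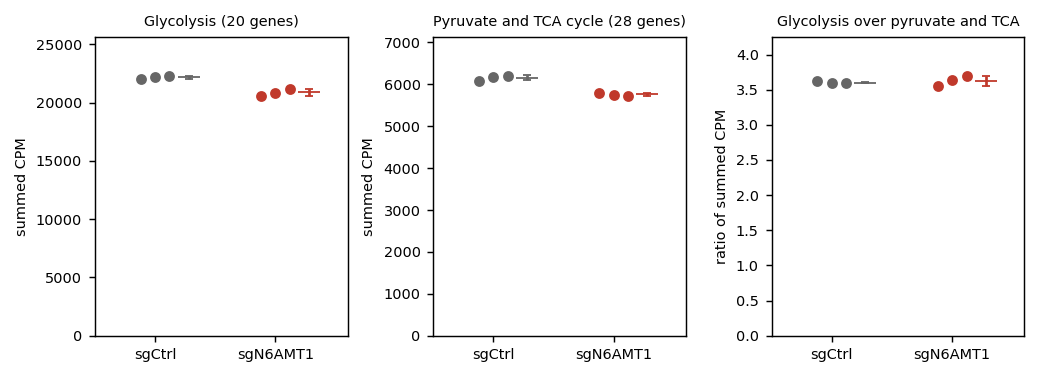
Summed CPM of the 20 glycolysis genes, of the 28 genes of pyruvate entry and the TCA cycle, and the ratio of the 2 sums, for each library (points) with group mean and SD (n = 3); axes start at 0. Both sums are lower in all 3 sgN6AMT1 libraries, while the ratio overlaps between 3.55 and 3.70.

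Levels between genes can be set side by side only per length. Per kilobase of CDS, GAPDH had 5009 CPM and ENO1 4534 CPM in sgCtrl. Among the genes whose CDS length was known, LDHB (1775 CPM), MDH2 (926 CPM) and TPI1 (913 CPM) followed at a distance. The TPI1 value depends on the listed CDS of 858 bases, of which 111 are absent from the MANE Select CDS. The order of TPI1 and MDH2 is therefore uncertain. PDK1 and PC had 14.1 and 13.4 CPM, and SLC16A3, under the filter, had 0.77 CPM. Because the listed transcripts of HK1, ALDOA, LDHA, SLC16A1, PDHA1, PDK3 and SUCLA2 could not be matched to the annotation, their level per kilobase was not computed. ALDOA and LDHA, with 2503 and 1924 CPM in sgCtrl before division by length, therefore have no place in this order.

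Isoform balance was compared in 10 pairs of paralogs as the log2 ratio of their CPM in each library, with a 2-sided exact permutation test over 3 against 3 libraries, which cannot give a p below 0.1. In 5 pairs the groups did not overlap: SLC2A3 over SLC2A1 (difference in log2 ratio -0.57), PFKP over PFKL (0.42), PFKM over PFKL (0.39), HK2 over HK1 (-0.25) and LDHB over LDHA (0.06), each with exact p = 0.1 and an adjusted p of 0.2 over the 10 pairs. The ratio of SLC2A3 to SLC2A1 was 0.472, 0.467 and 0.473 in sgCtrl and 0.306, 0.300 and 0.349 in sgN6AMT1, and that of PFKP to PFKL was 1.65, 1.77 and 1.37 against 2.24, 2.05 and 2.102. The pairs of aldolase, enolase, isocitrate dehydrogenase, succinyl-CoA ligase and malate dehydrogenase had exact p values from 0.2 to 0.8. No pair could pass a threshold of 0.05 in this design. The pairs of SLC16A3 with SLC16A1 and of PDK3 with PDK1 were not compared, because 1 of each was under the filter.

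Other genes of glycolysis and gluconeogenesis, outside the list, were called in 18.8% of cases, beside 26.9% of all genes. Of 35 such genes 16 were tested, 1 rose (BSG) and 2 fell (PKLR and PCK2), with a median log2 fold change of 0.04. BSG (basigin), the chaperone that brings the lactate transporter MCT1 to the membrane, rose from 577 ± 32.3 to 872 ± 84.4 CPM (log2 fold change 0.59 ± 0.05 SE, adjusted p = 1.43e-15). PKLR, the liver and red cell pyruvate kinase, fell from 75.8, 85.5 and 92.2 CPM in sgCtrl to 36.4, 35.9 and 38.5 CPM in sgN6AMT1 (log2 fold change -1.20 ± 0.12 SE, adjusted p = 1.65e-14). The direction in PKLR was opposite to that in PKM. The ratio of PKM to PKLR, a pair chosen after the values were seen, was 11.2 ± 1.04 in sgCtrl and 44.7 ± 2.89 in sgN6AMT1 (SD, n = 3), and is given without a test.

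Further genes around pyruvate and the TCA cycle were called downward more often than upward. Of 33 such genes 25 were tested, 2 rose (among them SDHAF4) and 7 fell (among them GLUD1, GLUD2, GOT1, GOT2, D2HGDH and SLC25A1), which is 8.0% and 28% beside 12.9% and 13.9% of all genes, with a median log2 fold change of -0.13. GLUD1 and GLUD2 are near-identical copies whose footprints could be split between them. SDHAF4, an assembly factor of succinate dehydrogenase, had 5 to 22 footprints per library and a log2 fold change of 1.21 ± 0.36 SE (adjusted p = 0.00664), and D2HGDH, which oxidises D-2-hydroxyglutarate, had -0.56 ± 0.22 SE (adjusted p = 0.0456). GLUD1, GOT1 and GOT2 are enzymes of glutamate use.

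In the pentose phosphate pathway, which branches off after hexokinase, 1 of 9 tested genes rose (TALDO1) and 2 fell (PGD and PRPS2), which is 11.1% and 22.2% beside 12.9% and 13.9% of all genes. PRPS2, which makes the activated ribose for nucleotides, fell from 93.8 ± 2.12 to 55.5 ± 5.07 CPM (log2 fold change -0.76 ± 0.11 SE, adjusted p = 1.26e-08). The other 6 did not pass the test.

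Hypoxia-inducible factors are known regulators of many glycolytic genes, so a list of these factors, their regulators and targets was counted beside the enzymes. Of its 17 tested genes 4 rose and 0 fell past the threshold of edgeR (23.5% called, beside 26.9% of all genes in either direction and 12.9% higher), 1 fell at an unadjusted p under 0.05, and DESeq2 likewise called 4 higher and 0 lower, with a median log2 fold change of 0.05 over the 17. EPAS1 (HIF-2 alpha) rose from 16.6 ± 1.17 to 51.6 ± 2.16 CPM (log2 fold change 1.62 ± 0.15 SE, adjusted p = 6.40e-16). P4HA2 (0.90), EGLN3 (0.78) and BNIP3L (0.62), respectively a collagen prolyl hydroxylase, an oxygen-sensing hydroxylase and a mitophagy receptor, were the others that rose. The remaining 13 did not pass the test, among them HIF1A, BNIP3, P4HA1, KDM3A and MIF, and 6 of the 17 had a log2 fold change below 0. The targets CA9, CA12, ADM, NDRG1, ANKRD37 and ANGPTL4 had too few footprints to be tested.

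The core of the hypoxia response element, ACGTG or GCGTG on either strand, was searched in the RefSeq promoters of GRCh38.p14, 250 bases before to 50 after each start. It overlaps the E-box CACGTG. Of 44 promoters matched to the list 28 held it (63.6%), against 48.4% of all 27305 promoters. The latter include promoters of genes with too few footprints to be tested, so these shares come from unlike sets of genes. It was present in 4 of 4 promoters of genes that rose and in 11 of 13 matched promoters of genes that fell. In the 250 bases before the start alone it was in 25 of 44 (56.8%), against 43.1% of all promoters, and in 3 of 4 and 10 of 13. The shares were not counted for called and uncalled genes over the whole table, and a link of the motif to the changes was not tested. A match is a run of letters and not a site shown to be bound.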

How the data were processed

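The authors trimmed the reads with cutadapt, removed reads of rRNA and tRNA, and placed the rest with Bowtie2 on 1 canonical transcript per gene of an Ensembl release on GRCh38. Their methods give both counts of predicted P-sites over the CDS of these transcripts and, for differential analysis, counts by overlap with a gene annotation; the deposited table holds raw counts in rows named by gene and transcript, with 0 columns of other samples, and which of these counts it holds is not settled. Of its transcript identifiers 91.5% matched GENCODE 44.

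Here, counts were tested with edgeR 4.0.16 (R 4.3.3; filterByExpr with a minimum count of 10, TMM factors, robust quasi-likelihood F test, no covariate) over 9202 genes, with Benjamini-Hochberg adjustment over all of them and a threshold of 0.05. The filter removed 10128 genes with 0.465% of the counts. Library totals ran from 1821356 to 2969736, and the common biological coefficient of variation was 4.36%. CPM are counts over filtered library size times TMM factor, and SE were derived from the F statistic. The procedure was tested on simulated data with known log2 changes of 0.5 or more in size. Smaller changes, such as most called genes of the list had, were not simulated. DESeq2 1.42.0, which the study's methods name, limma-voom (limma 3.58.1), other scaling factors and filters, thinning to 1821356 counts, loess trends of CDS length and GC (span 0.5), a replicate block and leaving out each library were alternatives.

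The genes and lists were chosen with earlier results of these data known. Values by library are given for the 8 largest increases and 8 largest decreases among called genes without overlap between groups and a mean of at least 10 CPM; 4 increases qualified. Paralogs, GAPDH, PKM, CS and subunits of the pyruvate and succinate dehydrogenase complexes are named with fold changes, and genes of other lists if called with a log2 fold change of at least 0.5 in size. Shared sequence was counted in 26-base windows over the listed CDS, searched in the whole of the other listed transcripts. RNA-seq was not used here, and a planned comparison of paralog protein sequences was not run. Single values of some listed genes and markers are not reported here.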

Additional observations from a re-analysis of the deposited data

How the results depend on the processing

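No called gene of the list changed direction under any alternative; 21 of 302 such values fell short of the threshold, all in PGK1, ENO1, CS, SDHA or FH. Among the 27 uncalled genes, 12 of 427 values passed it and 34 changed sign; the cause was not tested. DESeq2 called 1324 genes in all (585 higher, 739 lower) in place of 2473 (1191 and 1282). Genes of the list that rose numbered 5 in glycolysis with total counts, 1 with CDS length and GC trends removed, and 2 in pyruvate entry and the TCA cycle with total counts or a mean of at least 50 counts. The log2 difference of the sums was -0.033 (glycolysis) and -0.043 (pyruvate and TCA cycle) with total counts; medians in place of sums gave -0.14 for the latter and 0.068 for the ratio.

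Signs changed with total counts for PFKP (0.0048), ALDOA (0.034) and TPI1 (0.020), at a mean of at least 50 counts for ALDOA (0.0051), with no filter, voom and trends removed for MPC1 (-0.0063, -0.0039, -0.11), and with thinning for PDHX (-0.038) and PC (-0.10). For IDH2 they changed with DESeq2 (-0.012), RLE factors (-0.00015), no filter (-0.0099), voom (-4.1e-05), trends removed (-0.082) and thinning (-0.14), and for SDHC with trends removed (-0.062) and thinning (-0.0092).

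Leaving out 1 library at a time, glycolysis genes that rose numbered 1 to 3 (1 without sgCtrl replicate 1 or sgN6AMT1 replicate 2) and pyruvate and TCA cycle genes that fell 6 to 9 (6 without sgCtrl replicate 2 or sgN6AMT1 replicate 2). Ranges that crossed 0 were -0.15 to 0.049 for PFKM, -0.11 to 0.0041 for PFKP, -0.063 to 0.0019 for ALDOA, -0.087 to 0.11 for MPC1, -0.10 to 0.10 for PDHX, -0.28 to 0.046 for PDK1, -0.023 to 0.044 for PC, -0.086 to 0.056 for IDH2, -0.033 to 0.084 for SDHC, -0.13 to 0.0077 for ALDOC over ALDOA and -0.028 to 0.15 for SUCLA2 over SUCLG2. The ratio of the sums ranged from -0.0040 to 0.025. Replicate numbers did not pair the samples (correlations of same-numbered deviations -0.14, 0.035 and 0.0033); with them as a replicate block 2390 genes were called and the counts for the list stayed at 3, 6, 1 and 9.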
